A study of Arabidopsis thaliana with 4 samples.

Results

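The genes described are 8 homeodomain-leucine zipper (HD-ZIP) class II transcription factor genes of Arabidopsis thaliana, HAT1, HAT2, HAT3, ATHB2 (also called HAT4), ATHB4, HAT9, HAT14 and HAT22. They were chosen by gene identifier from the 32548 genes of the deposited table, and all 8 were found there. The class holds further genes, of which ATHB17 and ATHB18 are given for comparison.

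HD-ZIP proteins pair through a leucine zipper and bind short palindromic DNA sites with their homeodomains. Class II proteins act mainly as repressors and also bind their own and each other's promoters. ATHB2, ATHB4, HAT1, HAT2 and HAT3 are known for their rapid rise when neighbouring plants shade a seedling, a response that runs from phytochromes through PIF transcription factors, and ATHB2, ATHB4 and HAT3 also help to set the upper side of leaves.

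RNA was measured in whole seedlings by paired-end sequencing with 150-base reads. The genotypes compared were both of the Col-0 background, the wild type (2 libraries) and the mutant bdt1, labelled bdt1-/- and, in its source label, btl1-/- (2 libraries). All seedlings grew on Murashige and Skoog plates at 22 °C in days of 16 h light and 8 h dark, and were taken at 10 days. The labels name no allele of the mutation, and p-values measure the spread between replicates that the submitters call biological.

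Recovered totals ran from 22914893 to 27435729 reads per library, and 23256 genes reached the mean normalised read count of 1 needed for testing. AT4G11560, which background knowledge and not the tables ties to the name BDT1, was 3.53-fold lower in bdt1 and still present. Markers of green shoots and of roots were present. The summed level of 4 green shoot markers was 510000 to 535000 normalised reads in wild type and 474000 to 481000 in bdt1, and that of 4 root markers was 831 to 855 and 898 to 973. The 3 flower markers summed to 25.5 to 35.8 in wild type and 53.8 to 56.8 in bdt1, and the 3 embryo markers to 5.08 to 34.5 and 74.3 to 97.7, with the embryo regulator LEC1 at 1 read in wild type and 0 in bdt1 and the storage protein gene AT2S1 at 0 in wild type and 12 in bdt1. Most of that sum came from the storage protein gene CRC (AT4G28520), with 38 reads in wild type and 157 in bdt1 (limma adjusted p = 0.14). Among the green shoot markers the antenna protein gene CAB3 fell by 0.45 on the log2 scale (limma adjusted p = 0.037), and the other 3 did not pass. Each of these sums differed between genotypes without overlap, as did 23.7% of tested genes downward and 25.2% upward. The single markers LHCB1.1, CASP1, COBL9, AG and AP3 overlapped. The part of these sums in the results on HD-ZIP genes was not tested.

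Of the 8 class II genes, HAT1 and HAT2 fell in bdt1 and the other 6 did not pass the test (limma, adjusted p under 0.05 over all tested genes). These 2 of 8 genes stand beside 0.856% of all tested genes called lower in bdt1. The members were chosen with earlier results of these data known, so these shares are a description and not a test. None of the 8 was called higher, as 1.2% of tested genes were. The median log2 fold change of the 8 genes was -0.13, against 0 over all tested genes, with 4 positive and 4 negative values. Fold changes are on the scale of log2(normalised read count + 1), bdt1 minus wild type.

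HAT1 (AT4G17460), a partner of the brassinosteroid regulator BES1 that also acts in gynoecium formation, is annotated at 9739518 to 9741234 of chromosome 4, plus strand, in TAIR10.1. Normalised read counts were 608 and 744 in wild-type replicates 1 and 2 and 470 in each bdt1 replicate. The wild-type libraries differed from each other, but both lay above both bdt1 libraries. In log2 terms HAT1 fell by 0.52 ± 0.10 (SE; adjusted p from limma = 0.049), a level 0.699 times that of wild type with a 95% interval of 0.592 to 0.825. The values rest on 575, 810, 446 and 480 recovered reads in the same order.

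HAT2 (AT5G47370), an auxin-induced gene and the closest relative of HAT1, is annotated at 19216271 to 19218007 of chromosome 5, minus strand. Wild-type replicates 1 and 2 had 565 and 530 normalised reads, and bdt1 replicates 1 and 2 had 372 and 415. Both bdt1 libraries were again below both wild-type libraries, and the gap between genotypes was larger than the gap within either. HAT2 fell by 0.48 (SE 0.09; limma adjusted p = 0.046), a level 0.718 times that of wild type with a 95% interval of 0.618 to 0.835. In whole seedlings, fewer cells of a type and less RNA per cell cannot be told apart.

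Both falls were modest: the 199 genes called lower had a median change of 0.60 in size, and 114 of them changed more than HAT1 and 128 more than HAT2. The limma calls lay close to the threshold. HAT1 lost its call without wild-type replicate 2 (-0.37, adjusted p = 0.0988), and HAT2 without wild-type replicate 1 (-0.43, 0.0581) or replicate 2 (-0.52, 0.0741). Without either bdt1 library limma called no gene in the whole table, with 1573 and 1611 genes at an unadjusted p under 0.05, so HAT1 (-0.52 and -0.52) and HAT2 (-0.40 and -0.56) were lost too. The edgeR quasi-likelihood fits on recovered counts with the same libraries left out were added after seeing the data. Their log2 fold changes ran from -0.66 to -0.37 for HAT1 and from -0.56 to -0.41 for HAT2. Over the 15 alternatives set out with the design, the log2 fold change was negative in all 15 for HAT1, HAT2 and HAT3, and the call held in 9 for HAT1 and 7 for HAT2. A pseudocount of 0.1 (adjusted p = 0.0701 and 0.0621), no filter on low values (0.0546 and 0.0502) and limma without the trend (0.327 and 0.272) ended both calls, and DESeq2 that of HAT2 (0.0751).

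**Figure D1:**
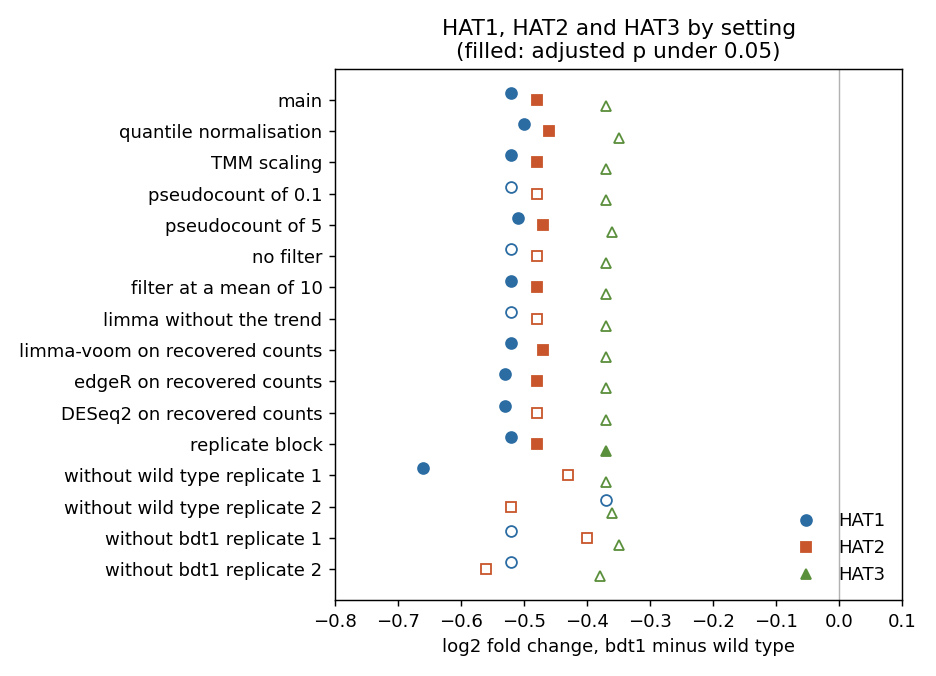
Log2 fold change (bdt1 minus wild type) of HAT1, HAT2 and HAT3 on the x axis under the reported fit and each of the 15 alternatives listed on the y axis, 1 point per gene, filled where the adjusted p was under 0.05. All points lie below 0, from -0.66 to -0.35, with HAT1 filled in 9 alternatives, HAT2 in 7 and HAT3 in 1.

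The 250 bases before the annotated starts of HAT1 and HAT2 are shown because these are the genes that fell. The sequences are read 5′ to 3′ along each gene's strand, with capitals at matches to any of the motifs described further on.
HAT1 promoter, chr4:9739268-9739517, plus strand: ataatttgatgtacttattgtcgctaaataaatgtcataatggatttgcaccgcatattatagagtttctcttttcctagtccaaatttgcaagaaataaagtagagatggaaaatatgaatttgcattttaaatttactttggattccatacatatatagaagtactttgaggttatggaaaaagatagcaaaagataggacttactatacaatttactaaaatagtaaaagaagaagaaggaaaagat
HAT2 promoter, chr5:19218008-19218257, minus strand: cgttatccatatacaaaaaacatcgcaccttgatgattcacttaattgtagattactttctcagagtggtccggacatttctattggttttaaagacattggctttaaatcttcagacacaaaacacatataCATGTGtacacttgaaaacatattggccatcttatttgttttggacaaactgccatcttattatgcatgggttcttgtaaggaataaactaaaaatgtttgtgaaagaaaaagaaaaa

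HAT3 (AT3G60390; chromosome 3, 22320580 to 22322661, minus strand), which acts with ATHB4 in leaf polarity, was at 491 and 494 normalised reads in wild type and 378 and 386 in bdt1. Its groups stood well apart and its replicates nearly coincided. The change of -0.37 (SE 0.09; 95% interval -0.56 to -0.17) nonetheless missed the threshold over all genes, at a limma adjusted p of 0.08. HAT3 stood at rank 749 of 23256 genes by p-value, with HAT2 at 435 and HAT1 at 464.

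ATHB2 (AT4G16780; chromosome 4, 9449114 to 9450905, plus strand), the most studied shade-induced member and a promoter of stem elongation, was at 188 and 223 in wild type and 188 and 237 in bdt1. The values of the genotypes overlapped almost fully. Its log2 fold change was 0.04 (SE 0.16, limma adjusted p = 0.93), with a 95% interval of -0.32 to 0.40 that reaches neither the value of HAT1 nor that of HAT2. The intervals of HAT1 (-0.76 to -0.28) and HAT2 (-0.69 to -0.26) overlap that of ATHB2. The difference between ATHB2 and these genes in response to the mutation was not itself tested.

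ATHB4 (AT2G44910; chromosome 2, 18517656 to 18519731, minus strand) had the fewest reads of the 8, from 39 to 56 per library. Its normalised read count was 56.8 and 35.4 in wild type and 50.6 and 54.8 in bdt1. The bdt1 values lay between the wild-type ones, and no change was detectable at this depth (log2 value 0.23, SE 0.29; limma adjusted p = 0.75; 95% interval -0.43 to 0.88).

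Outside the shade-induced group, HAT22 (AT4G37790; chromosome 4, 17768042 to 17769676, plus strand), a gene linked to drought and abscisic acid responses, was at 831 and 978 in wild type and 895 and 953 in bdt1. Both bdt1 values fell inside the wild-type range. The log2 fold change was 0.03 (SE 0.09, limma adjusted p = 0.89), and the 95% interval of -0.17 to 0.24 holds changes of at most 1.18-fold upward.

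HAT9 (AT2G22800; chromosome 2, 9704632 to 9706217, minus strand), the closest relative of HAT22, was at 146 and 119 in wild type and 137 and 148 in bdt1. The groups overlapped, with a change of 0.11 (SE 0.17; limma adjusted p = 0.79). HAT14 (AT5G06710; chromosome 5, 2067941 to 2070566, minus strand) was at 161 and 209 in wild type and 146 and 154 in bdt1. Its groups did not overlap, but the wild-type libraries lay far apart and the change of -0.29 (SE 0.16; limma adjusted p = 0.43) did not pass. That value was -0.47 without wild-type replicate 1 and -0.10 without wild-type replicate 2.

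In 4 of the 8 genes, HAT1, HAT2, HAT3 and HAT14, both bdt1 libraries lay below both wild-type libraries, and in none did both lie above. Over all tested genes, 23.7% were separated downward and 25.2% upward. Of the 5 shade-induced genes 2 fell and 3 did not pass (median log2 fold change -0.37), and of the other 3 none passed (median 0.03).

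**Figure D2:**
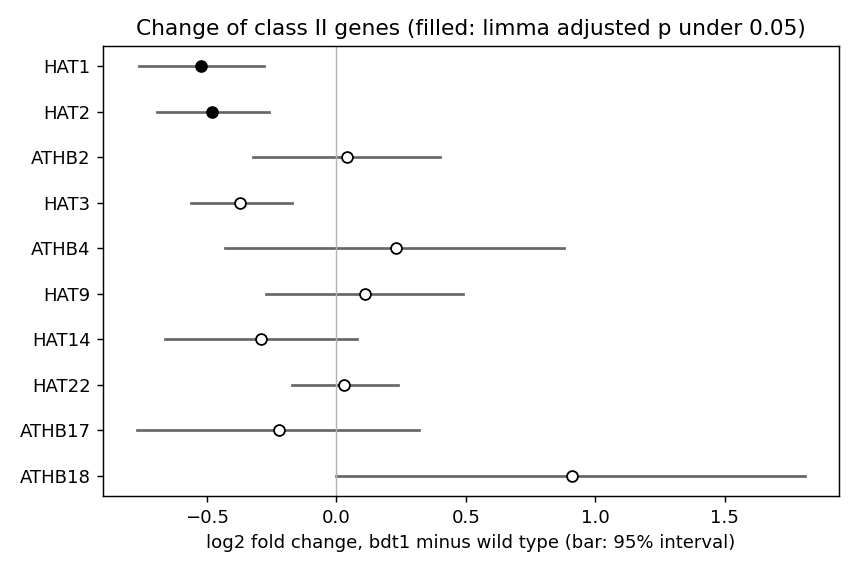
Log2 fold change of bdt1 against wild type (x axis) for the 8 class II genes and for ATHB17 and ATHB18, with bars for the 95% interval of the limma fit on 2 libraries per genotype and filled points for adjusted p under 0.05. HAT1 (-0.52) and HAT2 (-0.48) are filled, the interval of HAT3 (-0.56 to -0.17) also lies below 0, and ATHB18 has the widest interval.

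The class II genes outside the list are both weakly expressed. ATHB17 (AT2G01430) was at 81.2 and 61.2 in wild type and 66.2 and 54.8 in bdt1, with overlap and a change of -0.22 (SE 0.24; limma adjusted p = 0.69), which was -0.02 without wild-type replicate 1, -0.42 without wild-type replicate 2, -0.36 without bdt1 replicate 1 and -0.09 without bdt1 replicate 2. ATHB18 (AT1G70920) was at 14.8 and 17.5 in wild type and 42.9 and 22.4 in bdt1. Both bdt1 values were higher, yet they differed widely, and the change of 0.91 (SE 0.40; limma adjusted p = 0.30) did not pass and was 0.45 without bdt1 replicate 1 and 1.36 without bdt1 replicate 2.

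Levels between genes were compared as normalised reads per kilobase of exon, using the union of RefSeq exons. In wild type the order was HAT22 (577 and 679 per kilobase), HAT1 (421 and 515), HAT2 (397 and 373), HAT3 (339 and 341), ATHB2 (141 and 168), HAT9 (111 and 90.7), HAT14 (75.0 and 97.2) and ATHB4 (40.8 and 25.4). HAT9 and HAT14 overlapped, and every other pair of neighbours was separate. HAT14 has 4 annotated transcripts, so its exon length of 2148 bases may exceed that of the transcript present. HAT22 stood at the 80.7th percentile of tested genes by this level and ATHB4 at the 23.6th.

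In bdt1 the order of the means was the same. HAT1 was at 325 per kilobase in each library, HAT2 at 261 and 292, and HAT3 at 261 and 267, so that HAT2 and HAT3 overlapped. HAT22 was at 622 and 661. The 5 shade-induced genes summed to 1340 and 1420 per kilobase in wild type and 1030 and 1100 in bdt1, while HAT9, HAT14 and HAT22 summed to 763 and 867 and to 794 and 846. HAT22 thus made up 27.4% and 29.7% of the summed level of the 8 genes in wild type and 34.2% and 34.0% in bdt1, and HAT1 20% and 22.5% against 17.9% and 16.7%.

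**Figure D3:**
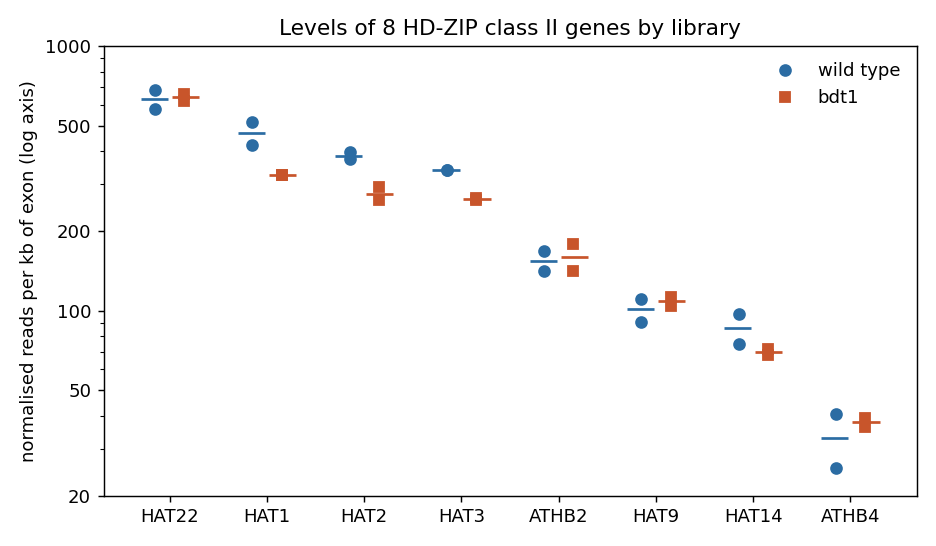
Normalised reads per kilobase of exon (y axis, log scale) of the 8 genes in each of 2 wild-type libraries (circles) and 2 bdt1 libraries (squares), with lines at the group means. The bdt1 points of HAT1, HAT2, HAT3 and HAT14 lie below the wild-type points, and those of HAT22, ATHB2, HAT9 and ATHB4 lie among them or overlap their range.

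The genes that fell are each other's closest relatives by coding sequence. HAT1 and HAT2 matched at 77.3% of aligned coding bases, and ATHB2 was closest to HAT1 at 72.8%. HAT3 and ATHB4 matched at 76.4%, and HAT9 and HAT22 at 80.7%. HAT14 matched none of the 8 at more than 71.1% (ATHB2). No stretch of 50 bases in the annotated transcripts of these 8 genes, ATHB17 or ATHB18 occurs in a transcript of another nuclear gene on either strand, and no other annotated gene overlaps them.

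Ratios between relatives were taken within each library. The ratio of HAT1 to HAT2 per kilobase was 1.06 and 1.38 in wild type and 1.24 and 1.12 in bdt1, so the genotypes overlapped. The ratio of HAT1 to ATHB2 was 2.98 and 3.07 in wild type and 2.31 and 1.83 in bdt1, and that of HAT2 to ATHB2 was 2.81 and 2.22 against 1.86 and 1.64. Both ratios to ATHB2 lay lower in both bdt1 libraries, a difference that was not tested. The ratio of HAT3 to ATHB4 was 8.31 and 13.4 against 7.2 and 6.78, where the low read numbers of ATHB4 weigh on the value.

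Motif matches were searched in the 1000 bases before each annotated start, on both strands, and the shares refer to 27443 protein-coding genes. The HD-ZIP palindrome CAATNATTG, with any base at its centre, was found upstream of HAT1 and ATHB2 and of 3.44% of all genes. With the centre left free, a match does not tell class II sites from those of other HD-ZIP classes. The central base was G at HAT1 and A at ATHB2. These sites are shown because they lie beside 1 gene that fell and 1 that did not, with the 9 bases of the motif in capitals.
HAT1 site, chr4:9738770-9738798, plus strand: gttcttgcacCAATGATTGgaaaaatttg
ATHB2 site, chr4:9448627-9448655, plus strand: gatctaattcCAATAATTGtcaaagagga

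The first motif base lies 738 bases before the start of HAT1 and 477 before that of ATHB2. The PBE-box CACATG, a sequence bound by PIF proteins, was found upstream of HAT1, HAT2, HAT3 and HAT22, in 4 of the 8 genes and 37.7% of all genes. One match, 118 bases before the start of HAT2, is in the promoter printed above as its reverse complement. The G-box CACGTG was found in HAT14 alone, against 14.8% of all genes, and the auxin response element TGTCTC in HAT2 and HAT22, against 39.6%. Only 795 bases separate HAT22 from the annotated gene before it, so its window runs into that gene. The TGTCTC match of HAT22 begins 796 bases before its start, at the edge of that gene. No match overlapped another, and the matches describe sequence and not binding.

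**Figure D4:**
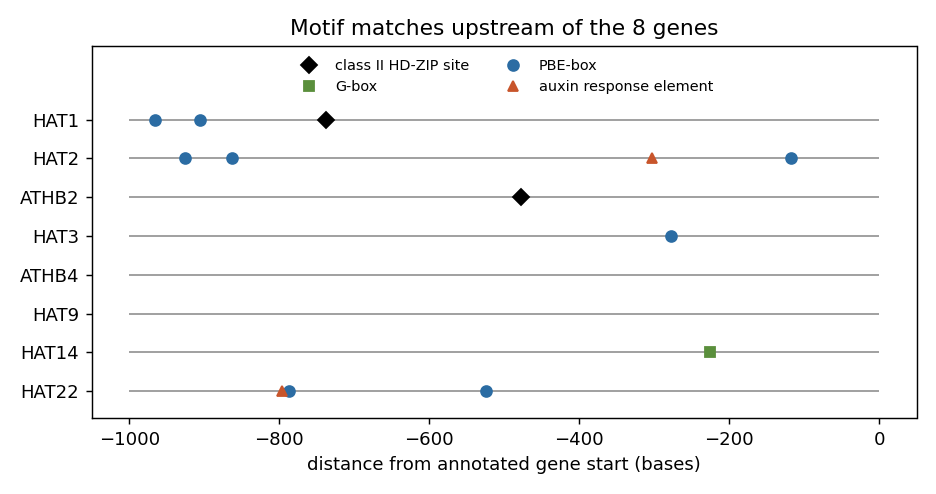
Positions of motif matches (symbols) in the 1000 bases before the annotated start of each of the 8 genes, with distance from the start in bases on the x axis. HAT1 and ATHB2 each hold 1 match to CAATNATTG, at -738 and -477. The legend calls this motif the class II HD-ZIP site, although a match does not tell class II sites from those of other HD-ZIP classes. ATHB4 and HAT9 hold no match to any of the 4 motifs.

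Genes around the class II genes are given as a description, and whether their lists differ from all tested genes was not tested. Of 114 further genes in 9 lists, which cover other HD-ZIP classes, their inhibitors, phytochrome and PIF genes, TOPLESS co-repressors, leaf polarity, auxin and brassinosteroid genes, 113 were tested and 1 was called, against 2.06% of all tested genes called in either direction. An unadjusted p under 0.05 was found for 23 of them and for 3807 of all tested genes.

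The 1 called gene was HDG3, a class IV homeodomain gene, with 0 reads in wild type and 13 and 10 in the bdt1 replicates. Both bdt1 libraries held reads and neither wild-type library did. This is at least 8.13-fold higher against a floor of 3 reads over the wild-type group, allowing for counting error in wild type only (limma adjusted p = 0.037). With 0 reads in wild type, leaving out 1 library could not turn its direction, so those fits do not test it. HDG3 also reached the mean of 1 needed for testing through the bdt1 libraries alone. In fitted values, which depend on the prior count, the call was lost without wild-type replicate 2 (log2 fold change 3.65) and without bdt1 replicate 1 (3.43) or replicate 2 (3.87), with a pseudocount of 0.1 (6.86), without the trend (3.65) and under limma-voom (4.61), edgeR (6.57) and DESeq2 (6.02).

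The 5 class III genes all had negative log2 fold changes from -0.20 (CNA) to -0.07 (PHV), and none passed. Some genes of this class specify the upper leaf side, and REV is known to activate several class II genes. REV was at 1720 and 1540 normalised reads in wild type and 1510 and 1580 in bdt1, with overlap. Of the 4 LITTLE ZIPPER genes, which encode inhibitors of class III proteins, none passed (-0.26 to 0.14). Among 25 phytochrome, PIF and shade response genes none passed and 16 had a positive value (median 0.07). None of 12 leaf polarity, 5 TOPLESS, 22 auxin or 8 brassinosteroid genes passed, with medians of -0.03, -0.05, -0.10 and -0.11.

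**Figure D5:**
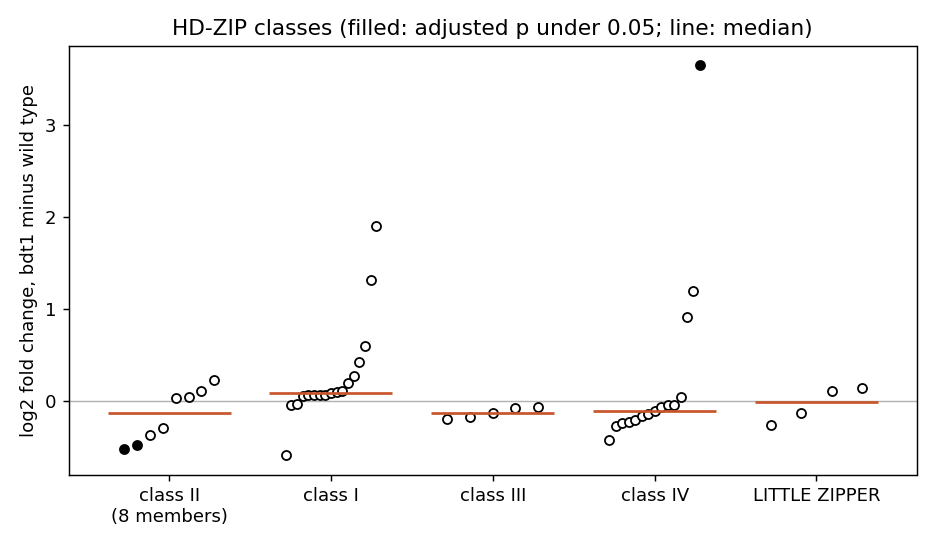
Log2 fold change of bdt1 against wild type (y axis) for each tested gene of the 8 class II members, HD-ZIP classes I, III and IV and the LITTLE ZIPPER genes, ordered by value within a class, with lines at the medians and filled points for adjusted p under 0.05. HAT1 and HAT2 are the filled points below 0 and HDG3 is the one above.

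Likeness to HAT2, the member with the smallest p-value, was measured as the root mean square difference of log2 values centred on each gene's mean, over the 4 libraries and 16043 genes with a mean of at least 100. The nearest genes were NUDT22 (0.017), a nudix hydrolase gene, AT3G10290 (0.025) and PSAD-2 (0.027), a photosystem I subunit gene. PSAD-2 was at 8410 and 7650 in wild type and 5520 and 5910 in bdt1, and passed (-0.49, limma adjusted p = 0.0081). NUDT22 and AT3G10290 each had a log2 fold change of -0.45 and did not pass (limma adjusted p = 0.15 and 0.27). Agreement over 4 libraries is a description of these values only.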

How the data were processed

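RNA was sequenced from 2 wild-type and 2 bdt1 libraries, grouped by title. The submitters' processing notes name HISAT2 2.2.0, edgeR and TAIR10. The sources used here do not give the read counter, annotation version or strandedness. The authors deposited a signal per gene and library that has the form of edgeR pseudo-counts, read counts adjusted to 1 library size. Fitting library sizes and a dispersion of 0.00544, and inverting the adjustment, gave whole counts that returned the deposited values for all 32548 genes (within 0.001 up to a value of 100, and within 0.001% above it). The deposited values were not raw counts, so limma 3.58.1 in R 4.3.3 was fitted with a mean-variance trend, unblocked, to log2(normalised read count + 1) for genes with a mean of at least 1. P-values are two-sided with Benjamini-Hochberg adjustment over 23256 genes at 0.05. Intervals are 95% intervals of that fit. edgeR 4.0.16, DESeq2 1.42.0 and limma-voom served as alternatives on recovered counts, beside other scalings, pseudocounts, filters, a replicate block and each library left out. Recovery and fit were tested on simulated data. The floor of 3 reads covers counting error only. All identifiers matched RefSeq TAIR10.1, which gave positions, exon lengths and sequences (Python 3.11.15, Biopython 1.88); organelle genes were not analysed here. Members and lists were chosen with earlier results of these data known. Genes named are the 8 members, ATHB17, ATHB18, called genes of the lists (up to 6 a list), AT4G11560 and the 3 genes most like the member of smallest p; REV and the list extremes were named after their values were seen.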

Additional observations from a re-analysis of the deposited data

How the results depend on the processing

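Without wild-type or bdt1 replicates in turn, limma called 0 to 1316 genes in all (479 with all libraries) and 0 to 1 of the 8 class II genes (2 with all libraries), and edgeR on recovered counts, an alternative chosen after seeing the data, called 518 to 2487 genes (2268 without wild-type replicate 1) and 1 to 3 members. Of the edgeR fits, only those with a library left out were chosen after seeing the data. A pseudocount of 0.1 gave 317 genes and 0 members, limma without the trend 48 genes and 0 members, no filter 0 members and DESeq2 1 member. With the replicate block 1818 genes were called, HAT3 among them (-0.37, adjusted p = 0.0175). The deviations of same-numbered libraries correlated at -0.01 over 23256 genes and at 0.14 over the 16044 with a mean of at least 100. Whether the replicate numbers pair the libraries cannot be told from these values. Among left-out libraries ATHB2 ranged up to 0.21, HAT22 to 0.15, ATHB4 to 0.56 and HAT9 to 0.26, and each changed sign. ATHB2 and HAT22 were both at -0.08 without wild-type replicate 1 (edgeR -0.07 and -0.08), and at -0.13 and -0.01 without bdt1 replicate 2 (edgeR -0.14 and -0.02). ATHB4 and HAT9 were at -0.11 and -0.03 without wild-type replicate 2 (edgeR -0.12 and -0.04). The cause of these shifts was not tested. A lone library is assumed to vary like the other group. With 39 to 56 reads a library, ATHB4 is limited by depth.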

Other observations

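Among the 17 class I HD-ZIP genes, 14 had a positive log2 fold change (median 0.09) and none passed. The ends of the range were chosen after their values were seen. ATHB21 had 5 and 1 reads in wild type and 10 and 13 in bdt1 (1.9, SE 0.69, limma adjusted p = 0.23), and LMI1, a regulator of leaf shape and flowering, had 42 and 29 against 23 and 21 (-0.59, SE 0.35, limma adjusted p = 0.45). Of 15 tested class IV genes, many of which act in the epidermis, 11 had a negative log2 fold change, with a median of -0.11. Over all 23256 tested genes, 11800 values were positive and 11456 negative.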
